A study of Arabidopsis thaliana with 12 samples.

Results

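Transcript levels are described for 8 Arabidopsis genes whose transcription factors have been tied to phosphate starvation, namely WRKY75 (AT5G13080), WRKY6 (AT1G62300), WRKY42 (AT4G04450), WRKY45 (AT3G01970), ZAT6 (AT5G04340), MYB62 (AT1G68320), HRS1 (AT1G13300) and HHO2 (AT1G68670). They were taken as a list of gene identifiers and make up 8 of the 32833 genes in the deposited table. All 8 had enough counts to be tested. RNA of 8-day-old Arabidopsis thaliana seedlings was sequenced in 12 libraries, 3 in each of 4 groups: phod2 at low phosphate (phod2 P-), phod2 at high phosphate (phod2 P+), KC at low phosphate (KC P-) and KC at high phosphate (KC P+). The condition is read as phosphate from the series title, and as low (P-) or high (P+) because the protocol speaks of LP and HP seedlings. The labels give neither a concentration nor a harvest time, do not spell out KC, and do not state which gene is altered in phod2 or whether phod2 is 1 line or several. The design text speaks of biological replicates, without saying how many seedlings were pooled.

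Plants short of phosphate switch on a set of genes for uptake, release and saving of phosphate, largely through the MYB-type factor PHR1, which SPX proteins hold back when phosphate is plentiful. The genes described here act beside or below PHR1. WRKY75 is known as an activator of starvation genes, and WRKY45 as one of the phosphate transporter gene PHT1;1. WRKY6 and WRKY42 are known to repress PHO1, the gene for the exporter that loads phosphate into the xylem. ZAT6 is a zinc finger repressor that alters root growth, MYB62 is an R2R3-type MYB factor linked to gibberellin, and HRS1 and HHO2 belong to the NIGT1/HHO family of repressors, which join nitrate and phosphate signals.

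Libraries held 16821084 to 23327960 counts, and 20891 genes were tested. Levels are given as TMM-scaled FPKM, which are counts scaled by library total and exon length, so levels can be compared between genes. A gene was called where edgeR's quasi-likelihood test gave a Benjamini-Hochberg adjusted p of at most 0.05, over all tested genes, and a change of at least 2-fold. Replicate 2 of phod2 P- stood apart by gene length. Relative to its group, its 10% shortest genes had a median log2 deviation of 0.455 and its 10% longest genes one of -0.662. In the authors' table the headers of the KC P+ libraries read WT, so if WT and KC are different lines, every comparison with KC P+ holds that difference too. All 9 root and all 7 shoot markers had counts in every group, and shoot markers summed to 25600 to 35100 in phod2 P-, 24100 to 24400 in phod2 P+, 27000 to 27500 in KC P- and 23800 to 23900 in KC P+. The 35100 came from replicate 2 of phod2 P-, while replicates 1 and 3 had 25900 and 25600. RBCS1A, LHCB1.3 and LHCB3 weigh most in these sums, which hide changes of single markers. LHCB3 averaged 3770 in phod2 P- and 1250 in phod2 P+, and FAMA 5.67 and 13.6. All 7 morning clock genes were higher in P- in both genotypes. Of 6 evening clock genes, 5 were lower and GI was higher in P- in both, and the 6 summed to 20.1 to 25.7 in phod2 P-, 153 to 156 in phod2 P+, 30.0 to 30.8 in KC P- and 178 to 184 in KC P+. Harvest time is not in the labels, so phosphate and time of day cannot be told apart in any comparison of P- with P+. Some clock genes also differed between genotypes. Of the 6 evening genes, 2 were lower in phod2 in P- and 1 in P+, and 1 of the 7 morning genes was lower in P+. Of all tested genes, 2.46% were lower in phod2 in P- and 5.42% in P+. Whether harvest time differed between genotypes is not in the labels either.

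**Figure D1:**
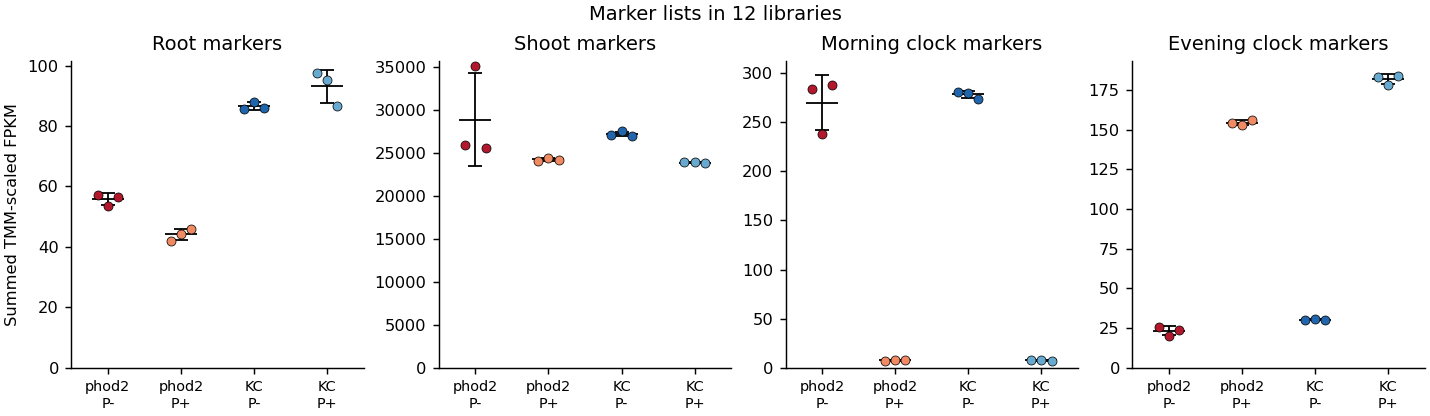
Summed TMM-scaled FPKM (vertical axes, each from 0) of 9 root, 7 shoot, 7 morning clock and 6 evening clock markers in phod2 P-, phod2 P+, KC P- and KC P+, with 1 point per library and the mean ± SD in black. Root markers summed to 42.1 to 57.3 in phod2 libraries and 85.5 to 97.4 in KC libraries, and morning clock markers to 238 to 288 in P- libraries and 7.07 to 7.91 in P+ libraries.

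The 250 bases before the annotated start of 4 of the genes are shown. HRS1 and HHO2 are relatives that moved in opposite directions at low phosphate in both genotypes. WRKY75, with HRS1, differed most between genotypes, and ZAT6 shares a motif with HRS1. The windows are from RefSeq's TAIR10.1 assembly and read 5′ to 3′ toward the gene. Capitals mark GAATATTC, a palindrome known to be bound by NIGT1-type factors, and TTGAC, the core of the W-box known to be bound by WRKY factors, which reads GTCAA where it lies on the other strand. GAATATTC also fits GNATATNC, the P1BS element known to be bound by PHR1. HRS1 lies on the plus strand of chromosome 1 (window chr1:4556628-4556877), HHO2 on the plus strand of chromosome 1 (window chr1:25781551-25781800), WRKY75 on the minus strand of chromosome 5 (window chr5:4151202-4151451) and ZAT6 on the minus strand of chromosome 5 (window chr5:1217363-1217612).
HRS1: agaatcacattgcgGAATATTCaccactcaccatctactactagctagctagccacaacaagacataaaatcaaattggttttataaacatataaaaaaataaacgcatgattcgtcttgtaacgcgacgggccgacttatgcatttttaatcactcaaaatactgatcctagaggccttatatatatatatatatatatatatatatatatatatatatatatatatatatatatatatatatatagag
HHO2: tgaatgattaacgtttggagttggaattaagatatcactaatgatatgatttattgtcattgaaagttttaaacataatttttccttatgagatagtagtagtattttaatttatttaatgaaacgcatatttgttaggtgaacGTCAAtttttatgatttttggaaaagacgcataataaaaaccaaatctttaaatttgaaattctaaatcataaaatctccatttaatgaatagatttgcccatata
WRKY75: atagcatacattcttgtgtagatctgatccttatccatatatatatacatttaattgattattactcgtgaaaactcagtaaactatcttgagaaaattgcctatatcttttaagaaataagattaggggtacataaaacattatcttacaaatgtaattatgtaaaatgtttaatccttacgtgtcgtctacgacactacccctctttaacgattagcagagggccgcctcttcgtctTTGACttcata
ZAT6: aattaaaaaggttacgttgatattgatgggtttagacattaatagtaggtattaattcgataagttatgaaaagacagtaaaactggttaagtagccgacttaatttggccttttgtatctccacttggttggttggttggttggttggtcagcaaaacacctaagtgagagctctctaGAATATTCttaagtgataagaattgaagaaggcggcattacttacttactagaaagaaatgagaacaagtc

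In windows of this length, searched on both strands, GAATATTC was present in HRS1, 236 bases before the start, and in ZAT6, 71 bases before the start. These were also the only GNATATNC matches, so 2 of 8 genes held a P1BS match, against 5.42% of 32546 windows of all genes. GAATATTC itself was in 0.823% of all windows. The W-box core stood in 6 of 8 windows, against 44.3% of all windows. It was 11 bases before the WRKY75 start, 106 before HHO2, 57 before WRKY6, 39 and 19 before WRKY42, 239 and 188 before MYB62, and 223, 188 and 15 before WRKY45. The WRKY45 window overlaps the neighbouring gene AT3G01980. The evening element AAATATCT, known from clock-controlled genes, was in 2 windows (WRKY42, MYB62) and in 4.56% of all, and the G-box CACGTG was in 1 (WRKY45) and in 5.9% of all. Binding was not measured, and a match is only a run of letters.

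HRS1 and HHO2, 2 members of the same repressor family, moved in opposite directions at low phosphate in both genotypes. In phod2 the fall of HRS1 was under the 2-fold limit. HRS1 is known for the control of primary root growth by nitrate and phosphate together. It spans positions 4556878 to 4558793 on the plus strand of chromosome 1. Its levels were 5.12, 5.52 and 3.78 in phod2 P-, 8.38, 7.59 and 7.88 in phod2 P+, 6.08, 6.84 and 5.78 in KC P-, and 26.1, 27.5 and 26.1 TMM-scaled FPKM in KC P+. The 3 KC P+ libraries stood far above the other 9, and no 2 neighbouring groups in the order KC P+, phod2 P+, KC P-, phod2 P- overlapped. In KC, HRS1 fell 4.25-fold in P- (mean 6.23 ± 0.545 in P- and 26.6 ± 0.782 in P+, SD, n = 3 each), a log2 difference of -2.09 ± 0.105 (SE; edgeR adjusted p = 4.79e-10). At high phosphate it was 3.34-fold lower in phod2 than in KC (log2 -1.74 ± 0.101, edgeR adjusted p = 1.55e-08).

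In phod2 the HRS1 level was 4.81 ± 0.912 in P- and 7.95 ± 0.403 in P+, a log2 difference of -0.72 ± 0.118 that stayed under the 2-fold limit (edgeR adjusted p = 8.57e-05). Between the genotypes the phosphate response itself differed, and that difference was called at 1.36 ± 0.16 on the log2 scale (edgeR adjusted p = 7.54e-05). At low phosphate the genotypes were closer, at log2 -0.38 ± 0.123 for phod2 against KC (edgeR adjusted p = 0.0419, 1.3-fold lower). Some root markers moved with the genotype: 5 of 9 were lower in phod2 in P+, against 5.42% of all tested genes. These were CASP1, CASP2, COBL9, EXPA7 and EXPA18. SCR and SHR were not lower, with 16.5 and 9.38 in phod2 P+ and 15.1 and 8.83 in KC P+. In bulk seedlings fewer cells of a type and less RNA per cell cannot be told apart. All 9 summed to 42.1 to 46.0 in phod2 P+ and 86.8 to 97.4 in KC P+, and to 53.6 to 57.3 in phod2 P- and 85.5 to 88.1 in KC P-, with none at 0. Genes of high level weigh most in these sums, such as CASP1 and CASP2 with means of 35.4 and 17.7 in KC P+. Root markers also moved with phosphate: in P- 5 of 9 rose in phod2 (median log2 1.01), against 14.1% of all tested genes. In KC 2 rose (PLT2, EXPA18) and 2 fell (CASP1, CASP2), against 10.9% and 9.6% of all tested genes. CASP1 and CASP2, markers of the endodermis, were highest in KC P+, as HRS1 was. CASP1 had 7.98 in phod2 P-, 8.84 in phod2 P+, 15.4 in KC P- and 35.4 TMM-scaled FPKM in KC P+. SCR and SHR of the same list went the other way, with their lowest means in KC P+. SCR had 18.3 in phod2 P-, 16.5 in phod2 P+, 20.0 in KC P- and 15.1 in KC P+. SHR had 11.9, 9.38, 12.5 and 8.83 in the same order. The part of root markers in the HRS1 differences was not tested, nor was it for WRKY75 and WRKY45 below. If the WT header of the KC P+ libraries means another line, that line and KC cannot be told apart here. Among all tested genes ranked by level, HRS1 stood at percentile 35.3 in phod2 P-, 48.1 in phod2 P+, 41.8 in KC P- and 80.0 in KC P+.

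HHO2, known in Arabidopsis for phosphate uptake and root architecture, had the highest mean of the 8 genes in 3 groups, while HRS1 did in KC P+. It spans positions 25781801 to 25784118 on the plus strand of chromosome 1. Its levels were 68.0, 74.2 and 68.6 in phod2 P-, 28.8, 29.7 and 30.4 in phod2 P+, 49.4, 48.0 and 50.1 in KC P-, and 21.7, 20.7 and 20.9 TMM-scaled FPKM in KC P+. All 4 groups were apart, in the order phod2 P-, KC P-, phod2 P+, KC P+. HHO2 rose 2.37-fold in P- in phod2 (log2 1.25 ± 0.0591, edgeR adjusted p = 2.03e-10) and 2.33-fold in P- in KC (log2 1.22 ± 0.0599, edgeR adjusted p = 3.53e-10). Phod2 and KC differed in this response by 0.03, with a 95% interval of -0.15 to 0.21 (edgeR adjusted p = 0.877). The genotype difference was of like size in both conditions but under the 2-fold limit. HHO2 was 1.43-fold higher in phod2 in P- (log2 0.51 ± 0.0581, edgeR adjusted p = 1.89e-05) and 1.4-fold higher in P+ (log2 0.49 ± 0.0599, edgeR adjusted p = 2.68e-05).

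**Figure D2:**
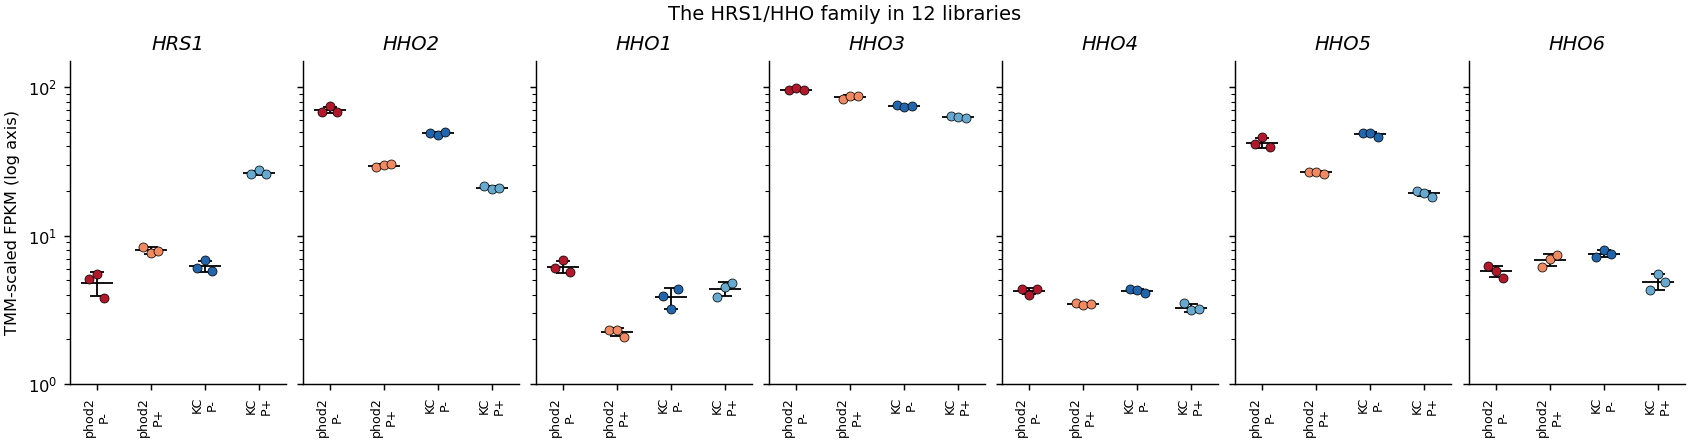
TMM-scaled FPKM on a log axis of the 7 genes of the HRS1/HHO family in phod2 P-, phod2 P+, KC P- and KC P+, with 1 point per library and the mean ± SD in black. HRS1 is highest in KC P+ (26.1 to 27.5), while HHO2 is highest in phod2 P- (68.0 to 74.2).

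Over the 7 family genes the summed level was 230 ± 9.49 in phod2 P-, 163 ± 3.42 in phod2 P+, 194 ± 1.26 in KC P- and 142 ± 1.92 TMM-scaled FPKM in KC P+. HRS1 made up 2.08% ± 0.335 of that sum in phod2 P-, 4.89% ± 0.342 in phod2 P+, 3.22% ± 0.288 in KC P- and 18.7% ± 0.48 in KC P+ (SD, n = 3 each). HHO2 made up 30.6%, 18.2%, 25.4% and 14.8% of it in the same order of groups. HHO3 held the largest share of the 7 in all 4 groups, 41.9% in phod2 P-, 52.8% in phod2 P+, 38.5% in KC P- and 44.2% in KC P+. KC P+ was the 1 group of the 4 in which HRS1 made up more of the family than HHO2. Of the 5 family genes beside HRS1 and HHO2, 1 rose in P- in phod2 and 1 in KC, where 14.1% and 10.9% of all tested genes rose. None of these 5 was called between genotypes, against 4.69% of all tested genes in P- and 7.4% in P+.

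HHO1, the closest relative of HRS1, had 6.09, 6.81 and 5.67 in phod2 P-, 2.3, 2.33 and 2.09 in phod2 P+, 3.92, 3.19 and 4.39 in KC P-, and 3.89, 4.49 and 4.78 TMM-scaled FPKM in KC P+. The phod2 groups were apart, while the KC groups overlapped. Between genotypes the libraries were apart in both conditions, although neither difference was called. HHO1 was lower in phod2 in P+ (mean 2.24 in phod2 and 4.39 in KC) and higher in P- (6.19 and 3.83). HHO1 rose in P- in phod2 (log2 1.46 ± 0.136, edgeR adjusted p = 3.02e-07), and the value in KC was -0.20 ± 0.131 (edgeR adjusted p = 0.205). Its responses differed between genotypes, at 1.66 ± 0.189 (edgeR adjusted p = 6.01e-05). HHO5 rose in P- in KC (48.1 in P- and 19.2 in P+, log2 1.32 ± 0.068, edgeR adjusted p = 5.84e-10). In phod2 it had 42.4 in P- and 26.7 in P+, log2 0.67 ± 0.0669, under the 2-fold limit.

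**Figure D3:**
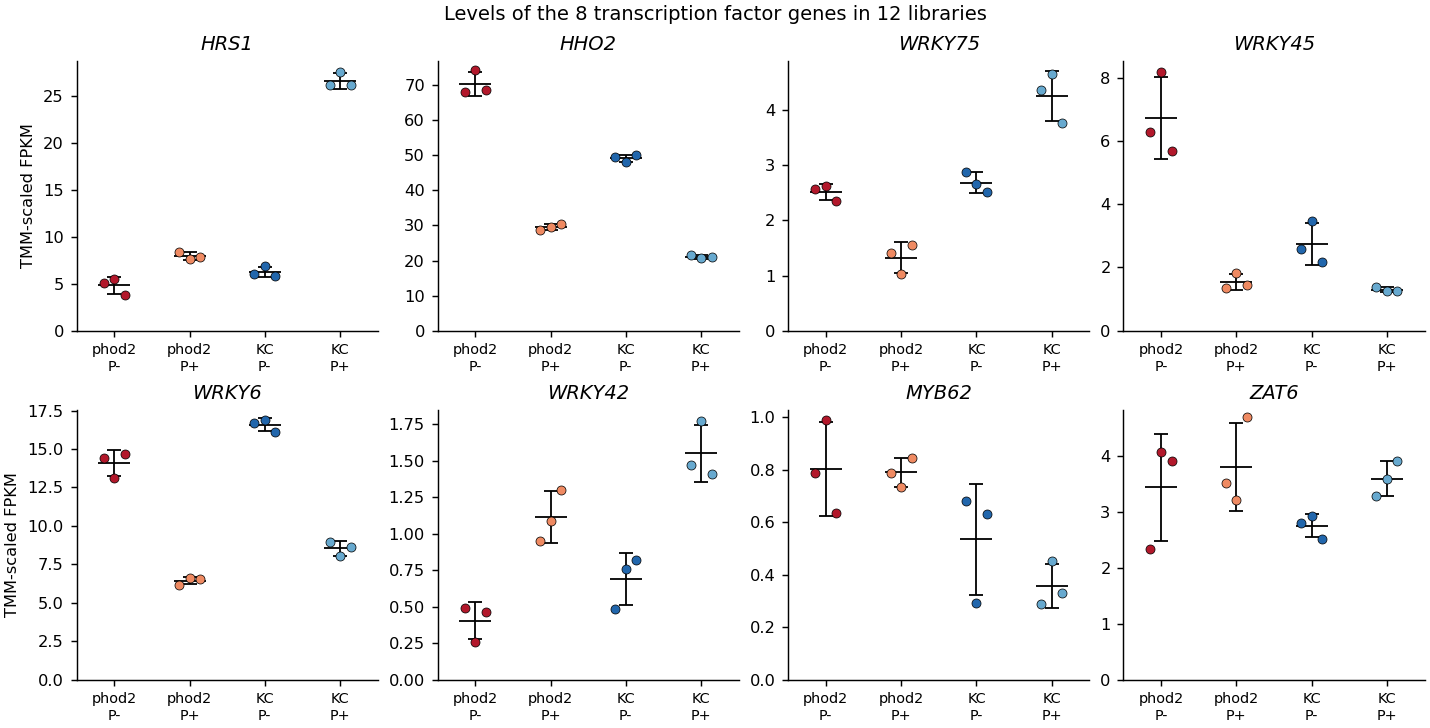
TMM-scaled FPKM (vertical axes, each from 0) of the 8 transcription factor genes in phod2 P-, phod2 P+, KC P- and KC P+, with 1 point per library and the mean ± SD in black. WRKY45 stands highest in phod2 P- (5.69 to 8.18), WRKY75 and HRS1 in KC P+ (3.77 to 4.65 and 26.1 to 27.5), and ZAT6 spans 2.33 to 4.7 over all 12 libraries.

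WRKY75 was lowest in phod2 at high phosphate. It activates starvation genes, represses root hair formation and is also known for leaf senescence, and it spans positions 4149738 to 4151201 on the minus strand of chromosome 5. Its levels were 2.57, 2.62 and 2.35 in phod2 P-, 1.41, 1.02 and 1.55 in phod2 P+, 2.88, 2.67 and 2.51 in KC P-, and 4.36, 4.65 and 3.77 TMM-scaled FPKM in KC P+. These rested on 46, 34 and 34 counts in phod2 P-, 22, 17 and 28 in phod2 P+, 44, 39 and 34 in KC P-, and 83, 69 and 70 in KC P+. The P- groups of both genotypes overlapped, while phod2 P+ lay below them and KC P+ above them. At high phosphate, WRKY75 was 3.17-fold lower in phod2 than in KC (1.33 ± 0.273 in phod2 and 4.26 ± 0.447 in KC, log2 -1.67 ± 0.181, edgeR adjusted p = 8.43e-06). At low phosphate the genotype difference was -0.10, with a 95% interval of -0.49 to 0.29.

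The phosphate response of WRKY75 had opposite signs in the genotypes, although neither change reached 2-fold. The log2 difference of P- against P+ was 0.91 ± 0.199 in phod2 (edgeR adjusted p = 0.001) and -0.65 ± 0.165 in KC (edgeR adjusted p = 0.00311). In each genotype the 3 P- libraries lay on 1 side of the 3 P+ libraries. Their difference was called at 1.57 ± 0.259 (edgeR adjusted p = 0.0012). Without replicate 3 of phod2 P+ the change in phod2 was 1.05 and was called (edgeR adjusted p = 0.00142). As for HRS1, KC P+ is the group with the WT header, and the root marker values given for HRS1 stand beside this result too.

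WRKY45, a small WRKY factor known to activate PHT1;1, rose most of the 8 genes at low phosphate in phod2. It spans positions 325952 to 327412 on the minus strand of chromosome 3. Its levels were 6.3, 8.18 and 5.69 in phod2 P-, 1.34, 1.83 and 1.45 in phod2 P+, 2.58, 3.46 and 2.16 in KC P-, and 1.38, 1.24 and 1.25 TMM-scaled FPKM in KC P+. The phod2 P- libraries lay above all others and the KC P- libraries next, while the P+ groups overlapped. WRKY45 rose 4.33-fold in P- in phod2 (log2 2.12 ± 0.191, edgeR adjusted p = 2.25e-07) and 2.11-fold in KC (log2 1.08 ± 0.219, edgeR adjusted p = 0.000611). In P- it was 2.44-fold higher in phod2 than in KC (6.73 ± 1.3 in phod2 and 2.73 ± 0.666 in KC, log2 1.29 ± 0.178, edgeR adjusted p = 0.000127). In P+ the difference was 0.25, with a 95% interval of -0.25 to 0.76.

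For WRKY45 the responses differed by 1.04 ± 0.298 (edgeR adjusted p = 0.037), just past the limits, and it was called in 10 of 21 settings. Without replicate 2 of phod2 P-, the highest of the 12 libraries for WRKY45 and the one with the length trend, it was 0.92 (edgeR adjusted p = 0.00786), under 2-fold. It was also not called without replicate 1 or 3 of phod2 P+, replicate 1 or 3 of KC P-, or any replicate of KC P+, with values of 0.90 to 1.06 and edgeR adjusted p of 0.069 to 0.0995. The rise in KC was 0.88 without replicate 2 of KC P-, under 2-fold (edgeR adjusted p = 0.00444). The genotype difference in P- was 1.15 without replicate 2 of phod2 P- (edgeR adjusted p = 6.14e-08), and the rise in phod2 was 2.00 (edgeR adjusted p = 1.76e-15).

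WRKY6 and WRKY42 are close relatives that are both known to repress PHO1, and their transcripts went opposite ways. WRKY6 spans positions 23016569 to 23019494 on the minus strand of chromosome 1. It had 14.4, 13.1 and 14.7 in phod2 P-, 6.18, 6.62 and 6.55 in phod2 P+, 16.7, 16.9 and 16.1 in KC P-, and 8.95, 8.02 and 8.65 TMM-scaled FPKM in KC P+. The 6 P- libraries all lay above the 6 P+ libraries, and phod2 lay below KC in both conditions. WRKY6 rose 2.18-fold in P- in phod2 (log2 1.12 ± 0.0705, edgeR adjusted p = 4.34e-09). With limma on log2(FPKM + 1) that value was 0.96, under 2-fold. In KC the change was 1.93-fold, just under the limit (log2 0.95 ± 0.0683, edgeR adjusted p = 2.27e-08). The responses of the genotypes differed by 0.17, with a 95% interval of -0.04 to 0.38 (edgeR adjusted p = 0.291). Without replicate 2 of phod2 P- this difference was 0.26 (edgeR adjusted p = 0.0369), under 2-fold. Between genotypes WRKY6 differed by -0.23 ± 0.0666 in P- and by -0.41 ± 0.0718 in P+ on the log2 scale, both under 2-fold (edgeR adjusted p = 0.0221 and 0.000669).

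WRKY42, also known to activate PHT1;1, spans positions 2218042 to 2221260 on the plus strand of chromosome 4. It was low, with 0.489, 0.259 and 0.466 in phod2 P-, 0.952, 1.09 and 1.3 in phod2 P+, 0.485, 0.759 and 0.821 in KC P-, and 1.47, 1.77 and 1.41 TMM-scaled FPKM in KC P+. These rested on 26, 10 and 20 counts in phod2 P-, 44, 54 and 70 in phod2 P+, 22, 33 and 33 in KC P-, and 83, 78 and 78 in KC P+. The P- groups overlapped each other and lay below both P+ groups. WRKY42 fell 2.7-fold in P- in phod2 (log2 -1.43 ± 0.255, edgeR adjusted p = 0.000192) and 2.25-fold in KC (log2 -1.17 ± 0.224, edgeR adjusted p = 0.000396). Without replicate 1 of KC P- the value in KC was -0.96, under 2-fold, and without replicate 2 of phod2 P- the value in phod2 was -1.19 and was called. With limma on log2(FPKM + 1), which understates changes of low genes, it was -0.61 in each genotype and was not called. The genotype differences were -0.72 ± 0.283 in P- and -0.46 ± 0.202 in P+, and neither passed the test (edgeR adjusted p = 0.0836 and 0.11). Without replicate 2 of phod2 P- the value in P+ was -0.48 (edgeR adjusted p = 0.026), under 2-fold. Over all 21 settings, by edgeR, DESeq2 or limma, the adjusted p in P- ranged from 0.0411 to 0.236.

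MYB62, whose overexpression is known to repress starvation genes and gibberellin synthesis, spans positions 25603676 to 25605181 on the plus strand of chromosome 1. It had 23, 21 and 15 counts in phod2 P-, 20, 20 and 25 in phod2 P+, 17, 7 and 14 in KC P-, and 9, 11 and 10 in KC P+. The matching levels were 0.787, 0.991 and 0.635 in phod2 P-, 0.787, 0.736 and 0.846 in phod2 P+, 0.681, 0.293 and 0.633 in KC P-, and 0.289, 0.453 and 0.329 TMM-scaled FPKM in KC P+. All 3 phod2 P+ libraries lay above the 3 KC P+ libraries, while the P- and P+ groups overlapped within each genotype. At high phosphate, MYB62 was 2.24-fold higher in phod2 than in KC (log2 1.16 ± 0.322, edgeR adjusted p = 0.0148). At these counts single libraries decided the call: the adjusted p was 0.0523 without replicate 3 of phod2 P+ (log2 1.11), 0.0671 without replicate 1 of KC P+ (1.03) and 0.0545 without replicate 3 of KC P+ (1.11), all by edgeR. No phosphate response passed the test. The log2 difference of P- against P+ was 0.01 in phod2, with a 95% interval of -0.60 to 0.63, and 0.60 in KC, with an interval of -0.16 to 1.37. Over all 21 settings, by edgeR, DESeq2 or limma, the adjusted p in KC ranged from 0.0318 to 0.675, and the change was never called.

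ZAT6 was the gene with the least variation among groups. It spans positions 1216058 to 1217362 on the minus strand of chromosome 5. Its levels were 2.33, 4.07 and 3.91 in phod2 P-, 3.51, 3.21 and 4.7 in phod2 P+, 2.81, 2.93 and 2.52 in KC P-, and 3.29, 3.59 and 3.91 TMM-scaled FPKM in KC P+. Each neighbouring pair of groups in the order of means overlapped, and the highest mean was 1.39 times the lowest. The 3 KC P- libraries lay below all P+ libraries of both genotypes. In KC this was at a log2 difference of -0.38 with a 95% interval of -0.83 to 0.06 (edgeR adjusted p = 0.12). In phod2 the difference of P- against P+ was -0.18, with an interval of -0.61 to 0.25 (edgeR adjusted p = 0.44). Between genotypes it was 0.29 in P- and 0.09 in P+, with intervals of -0.17 to 0.75 and -0.33 to 0.50. None of the 4 differences passed the test, and the intervals do not show that the groups were alike. Without replicate 2 of phod2 P- the difference in KC was -0.38 (edgeR adjusted p = 0.036), under 2-fold. Over all 21 settings, by edgeR, DESeq2 or limma, the adjusted p between genotypes in P- ranged from 0.0491 to 0.609.

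**Figure D4:**
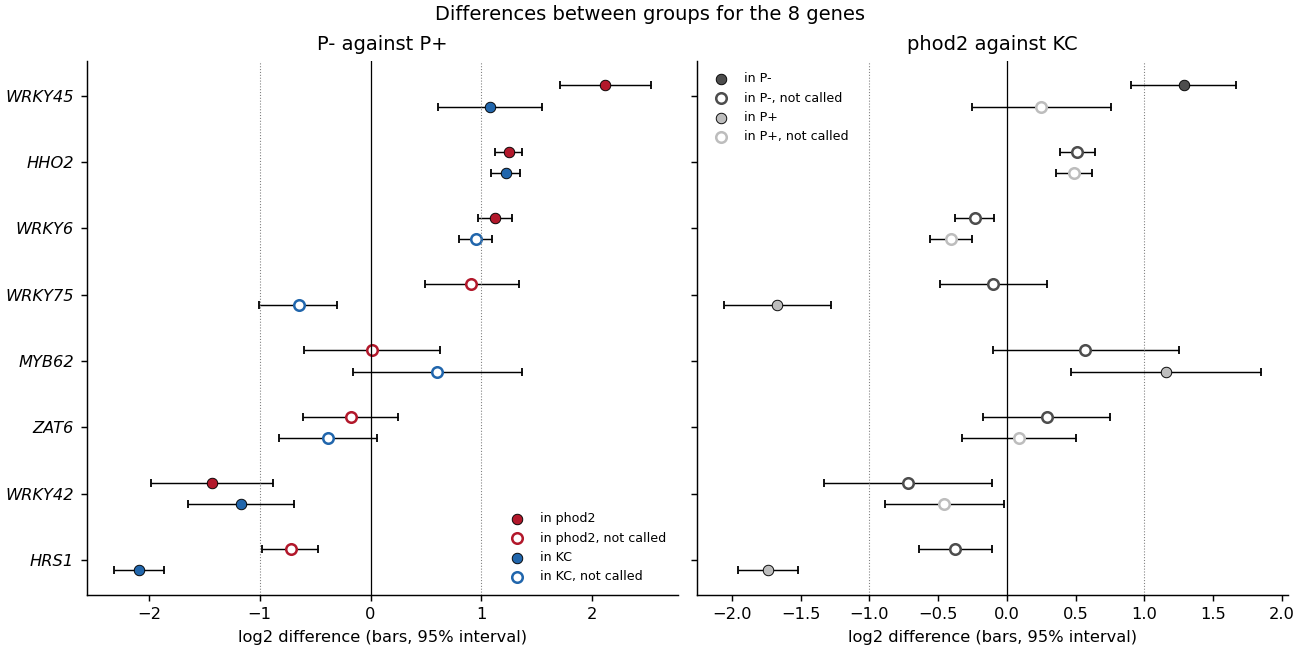
Log2 differences of the 8 genes, P- against P+ (left, in phod2 and in KC) and phod2 against KC (right, in P- and in P+), with 95% intervals as bars, filled points for called differences and dotted lines at 2-fold. WRKY45 has the highest value of P- against P+ in phod2 (2.12) and HRS1 the lowest in KC (-2.09), and WRKY75 and HRS1 are the genes called lower in phod2 in P+.

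Counted together, 4 of 8 genes were called for P- against P+ in phod2, 3 higher (WRKY45, HHO2, WRKY6) and 1 lower (WRKY42), where 24.4% of all tested genes were called (14.1% higher, 10.3% lower). In KC 4 of 8 were called, 2 higher (HHO2, WRKY45) and 2 lower (HRS1, WRKY42), against 20.5% of all tested genes (10.9% higher, 9.6% lower). Their median log2 difference was 0.46 in phod2 and 0.11 in KC, beside 0.0086 and 0.008 over all tested genes. Called genes went both ways in both genotypes. Between genotypes 1 of 8 was called in P- (WRKY45, higher), against 4.69% of all tested genes (2.23% higher, 2.46% lower). In P+ 3 of 8 were called (MYB62 higher, WRKY75 and HRS1 lower), against 7.4% (1.98% higher, 5.42% lower). The median of the 8 was 0.10 in P- and -0.16 in P+, beside 0.003 and 0.036 over all tested genes. For the difference between both phosphate responses, 3 of 8 were called (WRKY75, HRS1 and WRKY45, all higher), against 3.08% of all tested genes (2.39% higher, 0.685% lower). The values not called were -0.26 for WRKY42, 0.20 for ZAT6 and -0.59 for MYB62, with 95% intervals of -1.01 to 0.48, -0.41 to 0.82 and -1.57 to 0.39, beside those of WRKY6 and HHO2 given above. Without replicate 2 of phod2 P- the counts were 4 for the response in phod2, 1 for phod2 against KC in P- and 2 for the difference of responses. The comparisons share groups, so their counts are not independent of each other.

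Phod2 at high phosphate was also set against KC at low phosphate, a comparison in which genotype and condition both differ. WRKY6 was 2.56-fold lower in phod2 P+ (log2 -1.36 ± 0.0702, edgeR adjusted p = 5.62e-10) and WRKY75 2.02-fold lower (log2 -1.01 ± 0.198, edgeR adjusted p = 0.000429), and these 2 of 8 were called, against 24.2% of all tested genes (9.98% higher, 14.3% lower). WRKY75 was under 2-fold without replicate 2 of phod2 P+ (-0.85) and without replicate 1 of KC P- (-0.96). HRS1, low in both groups, differed by 0.35 ± 0.114, with a 95% interval of 0.10 to 0.59 (7.95 ± 0.403 in phod2 P+ and 6.23 ± 0.545 in KC P-). HHO2 differed by -0.73 ± 0.059 and WRKY45 by -0.83 ± 0.214, both lower in phod2 P+ and both under 2-fold. WRKY42 differed by 0.71 ± 0.235 (edgeR adjusted p = 0.0155), under 2-fold, and ZAT6 (0.47, interval 0.03 to 0.91) and MYB62 (0.56, interval -0.11 to 1.22) did not pass the test (edgeR adjusted p = 0.0565 and 0.125). Without replicate 2 of phod2 P-, ZAT6 had 0.45 (edgeR adjusted p = 0.0132), under 2-fold. For MYB62 the adjusted p ranged from 0.0148 to 0.456 over all 21 settings, by edgeR, DESeq2 or limma.

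Genes reported elsewhere in Arabidopsis as targets of these factors were followed as a list of 14, of which 12 could be tested and NRT2.4 and NRT2.5 were too low. The list was put together with earlier results of these data known. Of the 14, 7 rose and 1 fell in P- in phod2, and 7 rose and none fell in KC. Over all tested genes 14.1% rose and 10.3% fell in phod2, and 10.9% rose and 9.6% fell in KC. The median log2 difference of the 12 was 1.12 in phod2 and 1.38 in KC, beside 0.0086 and 0.008 over all tested genes. Set against KC, phod2 had 2 of the 14 higher in P-, and 4 higher and 1 lower in P+. Of all tested genes, 2.23% were higher in P-, and 1.98% were higher and 5.42% lower in P+.

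PHO1, the xylem loading exporter repressed by WRKY6 and WRKY42, had 52.3, 35.7 and 48.5 in phod2 P-, 22.1, 20.8 and 22.2 in phod2 P+, 47.2, 49.4 and 46.1 in KC P-, and 38.6, 37.7 and 38.6 TMM-scaled FPKM in KC P+. The phod2 P+ libraries were the lowest by far. The 35.7 in phod2 P- came from replicate 2, the library with the length trend, and the P- groups overlapped with or without it. PHO1 rose in P- in phod2 (log2 1.07 ± 0.106, edgeR adjusted p = 6.7e-07), and its change in KC was 0.31 ± 0.105 (edgeR adjusted p = 0.0176), under 2-fold. PHO1 responses differed between genotypes by 0.75 ± 0.149, under 2-fold (edgeR adjusted p = 0.00431).

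PHT1;1, the phosphate uptake transporter activated by WRKY45 and WRKY42, has near-identical relatives, so its counts may be shared with them. It had 41.9, 39.0 and 45.3 in phod2 P-, 17.9, 18.8 and 19.4 in phod2 P+, 65.2, 65.6 and 62.6 in KC P-, and 40.2, 40.2 and 39.5 TMM-scaled FPKM in KC P+. The phod2 libraries were lower than the KC libraries in P+, and lower in P- too. PHT1;1 rose in P- in phod2 (log2 1.17 ± 0.0658, edgeR adjusted p = 1.32e-09) and was lower in phod2 than in KC in P+ (log2 -1.09 ± 0.0656, edgeR adjusted p = 2.24e-08). The rise in KC was 0.69 ± 0.0637, under 2-fold. PHT1;4, the other major uptake transporter, rose in both genotypes (log2 2.28 ± 0.0826 in phod2 and 2.85 ± 0.0898 in KC) and was higher in phod2 in P+ (1.45 ± 0.0907, edgeR adjusted p = 3.43e-08).

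NRT2.1, the nitrate transporter gene repressed by NIGT1-type factors such as HRS1, had 2.86, 2.78 and 2.1 in phod2 P-, 2.62, 3.72 and 3.42 in phod2 P+, 3.09, 3.25 and 2.95 in KC P-, and 1.09, 0.982 and 1.16 TMM-scaled FPKM in KC P+. The KC P+ libraries, which were highest for HRS1, were the lowest for NRT2.1, and the other 9 libraries ranged from 2.1 to 3.72. The summed level of the 7 family genes was also lowest in KC P+ (142 ± 1.92), the group with the WT header. Whether HRS1 or its family acts on NRT2.1 here was not tested. NRT2.1 rose in P- in KC (log2 1.52 ± 0.168, edgeR adjusted p = 2.27e-06) and was higher in phod2 than in KC in P+ (1.59 ± 0.164, edgeR adjusted p = 5.21e-06). In phod2 the difference of P- against P+ was -0.33 ± 0.148 (edgeR adjusted p = 0.0592). Its responses differed between genotypes, at -1.85 ± 0.224 (edgeR adjusted p = 0.000103).

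SPX1, a phosphate sensor gene that NIGT1-type factors repress and PHR1 activates, averaged 415 in phod2 P-, 44.8 in phod2 P+, 112 in KC P- and 5.26 TMM-scaled FPKM in KC P+. It rose in P- in both genotypes and was higher in phod2 in both conditions, with log2 differences of phod2 against KC of 1.89 ± 0.081 in P- and 3.09 ± 0.0963 in P+ (edgeR adjusted p = 1.86e-09 and 2.97e-11). PS2, the gene of a starvation-induced phosphatase, averaged 349 in phod2 P-, 12 in phod2 P+, 75.1 in KC P- and 0.784 in KC P+. Both were called for the difference between the responses, at -1.20 ± 0.123 and -1.71 ± 0.187, which is the opposite sign to WRKY75, WRKY45 and HRS1. SPX4 was the listed target that fell in P- in phod2 (log2 -1.08 ± 0.116, edgeR adjusted p = 1.45e-06), and its value in KC was -0.63 ± 0.107, under 2-fold. CPC, a root hair regulator known to be repressed by WRKY75, rose in P- in KC (log2 1.23 ± 0.163, edgeR adjusted p = 1.38e-05), and its value in phod2 was 0.54 ± 0.166. CAT2, a catalase gene that WRKY75 is known to repress in senescence, rose in P- in both genotypes by 3.18 ± 0.0503 in phod2 and 2.93 ± 0.0497 in KC, in step with the morning clock genes named above, whose part was not tested.

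**Figure D5:**
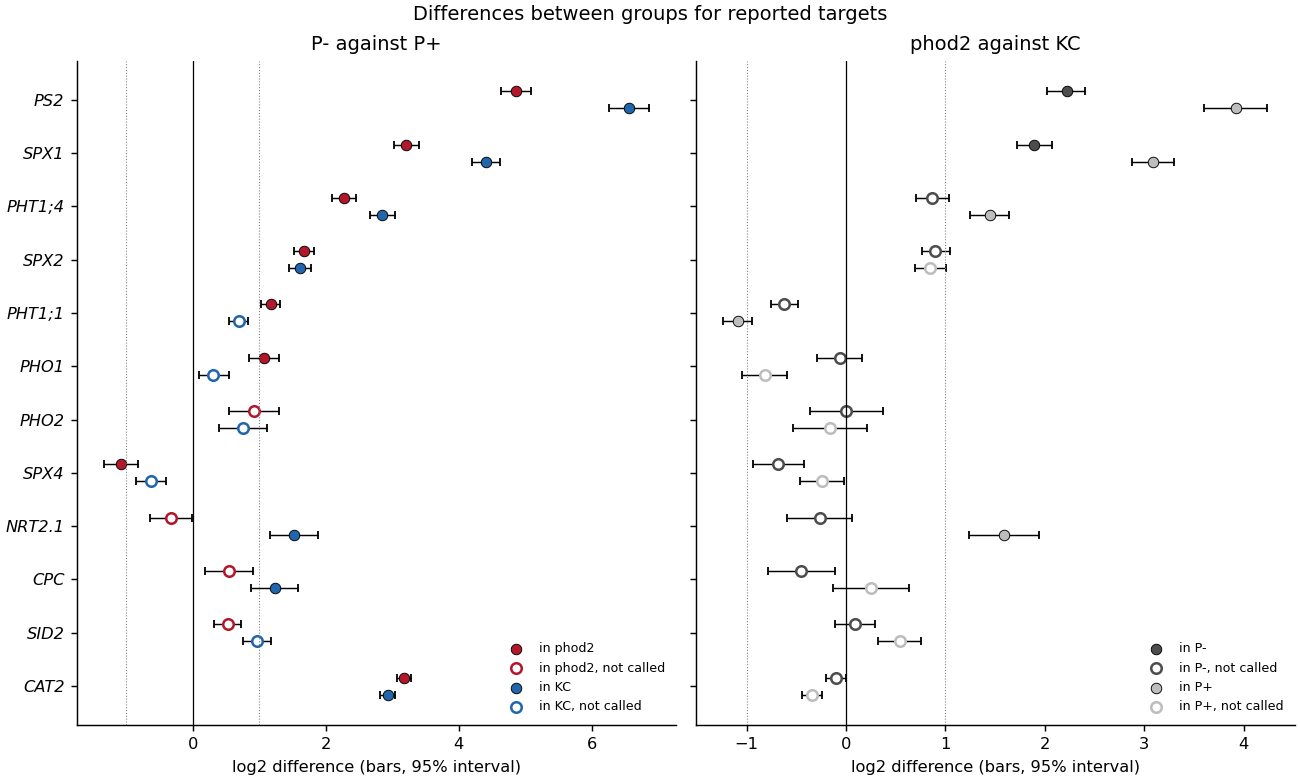
Log2 differences of 12 reported targets, P- against P+ (left, in phod2 and in KC) and phod2 against KC (right, in P- and in P+), with 95% intervals as bars, filled points for called differences and dotted lines at 2-fold. NRT2.1 is called in KC (1.52) and in P+ (1.59), and PS2 and SPX1 are called in all 4 comparisons.

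Of 14 other regulators of phosphate starvation, 13 could be tested. In P- 3 rose and 1 fell in phod2, and 1 rose and 1 fell in KC. Of all tested genes, 14.1% rose and 10.3% fell in phod2, and 10.9% rose and 9.6% fell in KC. The median of the 13 was -0.15 in phod2 and -0.13 in KC. Between genotypes 2 were higher and 1 lower in phod2 in P-, and 1 was higher and 1 lower in P+. The shares of all tested genes were 2.23% higher and 2.46% lower in P-, and 1.98% higher and 5.42% lower in P+. PHR1 itself averaged 27.1 in phod2 P-, 28.2 in phod2 P+, 27.6 in KC P- and 28.1 TMM-scaled FPKM in KC P+, with log2 differences between -0.06 and 0.03 in the 6 comparisons. Its relatives in the list were not all so even. PHL3 averaged 9.62 in phod2 P-, 21.5 in phod2 P+, 8.46 in KC P- and 21.4 in KC P+. PHL1 had 4.71, 6.79, 4.24 and 6.84 in the same order.

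ERF070, an ethylene response factor of root growth under low phosphate, had 24.0, 32.3 and 23.4 in phod2 P-, 10.3, 8.86 and 9.97 in phod2 P+, 9.88, 8.15 and 9.65 in KC P-, and 7.92, 7.79 and 7.67 TMM-scaled FPKM in KC P+. The phod2 P- libraries alone were high. ERF070 rose in P- in phod2 (log2 1.45 ± 0.121, edgeR adjusted p = 9.78e-08), was higher in phod2 than in KC in P- (1.52 ± 0.123, edgeR adjusted p = 7.89e-07), and differed between the responses by 1.20 ± 0.18 (edgeR adjusted p = 0.000598). Phod2 P- was also the group of the highest mean for WRKY45, HHO2 and MYB62 among the 8 genes, and for SPX1 and PS2 among the targets. RSL2, a root hair regulator, averaged 1.02 in phod2 P-, 0.305 in phod2 P+, 2.72 in KC P- and 2.53 in KC P+. It was lower in phod2 in P- (-1.42 ± 0.225) and in P+ (-3.05 ± 0.274), as were the root hair markers COBL9, EXPA7 and EXPA18 in the root list. ETC1 of the same list of regulators went the other way. It averaged 3.55 in phod2 P-, 1.8 in phod2 P+, 1.69 in KC P- and 0.762 in KC P+. CPC, the root hair regulator among the targets, had 4.41, 3.05, 6.04 and 2.54 in the same order, so it was not lower in phod2 in P+.

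Among 9 WRKY genes related to the 4 described, all 9 were tested. In P- 1 rose in phod2 (WRKY61, log2 1.07 ± 0.161) and 1 in KC (WRKY24, log2 1.16 ± 0.274). In P+ 3 were lower in phod2 than in KC, namely WRKY56 (-1.33 ± 0.302), WRKY9 (-1.08 ± 0.136) and WRKY36 (-1.16 ± 0.109), and in P- WRKY56 was (-1.05 ± 0.341, edgeR adjusted p = 0.0401). Of all tested genes, 14.1% rose in P- in phod2 and 10.9% in KC, and 5.42% were lower in phod2 in P+ and 2.46% in P-. None of the 9 was called for the difference between the responses, where 3.08% of all tested genes were. The median of the 9 for phod2 against KC was -0.56 in P- and -0.64 in P+, beside 0.003 and 0.036 over all tested genes.

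The genes whose profiles over the 12 libraries came nearest to each of the 8 were found by the root mean square difference of centred log2 levels, over 11094 tested genes with a symbol. HRS1 was nearest to AGP18 (0.244) and PMEI9 (0.246), both also highest in KC P+, with 22.3 in phod2 P-, 39.4 in phod2 P+, 24.4 in KC P- and 90.6 TMM-scaled FPKM in KC P+ for AGP18. HHO2 was nearest to BASS5 (0.082) and SOT18 (0.092), and WRKY6 to DCR (0.0631) and WNK4 (0.0741). WRKY75 was nearest to PLP8 (0.175) and NSP3 (0.191), and WRKY45 to BGLU1 (0.216) and EXLB1 (0.226). WRKY42 was nearest to CPK30 (0.203) and CEPR2 (0.22), ZAT6 to FTRA1 (0.169) and RPL32 (0.175), and MYB62 to TAA1 (0.265) and SAUR41 (0.285). For scale, the root mean square of a gene's own centred levels was 0.952 for HRS1, 0.665 for HHO2, 0.545 for WRKY6 and 0.279 for ZAT6, so the neighbours of ZAT6 share little more than a flat profile.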

How the data were processed

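Per the file headers, the table the authors deposited holds raw counts of reads and FPKM for each gene in each library. Which aligner and counting program made them, and whether strand was used, is not given in the sources used here. As genome build, the submitters' processing notes name mm10, which is a mouse build. Of the 32833 gene identifiers, 32548 were found in RefSeq's Arabidopsis assembly TAIR10.1, with equal start and end for 99.95% of them. Of the deposited FPKM values, 100% lay within 0.006 of values recomputed from the counts. Every value column was mapped to a sample, and 23 symbols that had become dates were not used.

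Counts were scaled with TMM factors, filtered with filterByExpr (smallest count 10), and tested in edgeR 4.0.16 (R 4.3.3) by quasi-likelihood, with 12 libraries and 4 group means in the same fit. The 20891 p-values of a comparison were adjusted after Benjamini and Hochberg. Called means an adjusted p of at most 0.05 and at least 2-fold, the limits in the series' design text. P-values set a difference against the spread between replicates within groups. For each gene that spread is an estimate shared by all 4 groups and steadied with those of other genes. TMM-scaled FPKM are counts over the scaled library size and the exonic length, log2 CPM used a prior count of 2, and intervals are 95%. None of the 8 genes overlaps another annotated gene. The fit was tested on simulated data. limma 3.58.1 and DESeq2 1.42.0 served as alternatives, beside other scalings, no filter, a length correction, a replicate block and leaving out each library. The 8 genes and all lists were chosen with earlier results of these data known. By rule all 8 are named, each with its 2 nearest genes by profile, and listed genes where called or known as targets or relatives.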

Additional observations from a re-analysis of the deposited data

Results flagged for a closer look

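For 3 of the 8 genes the test of the difference itself found unequal phosphate responses in the genotypes. The log2 change of P- against P+ in phod2 minus that in KC was 1.57 ± 0.259 for WRKY75 (edgeR adjusted p = 0.0012), where the phod2 change was 0.91 and the KC change -0.65. It was 1.36 ± 0.16 for HRS1 (edgeR adjusted p = 7.54e-05), where the phod2 change was -0.72 and the KC change -2.09. It was 1.04 ± 0.298 for WRKY45 (edgeR adjusted p = 0.037), where the phod2 change was 2.12 and the KC change 1.08. WRKY75 and HRS1 were called in all 21 settings, and WRKY45 in 10 of 21. The test pools all 12 libraries, and the cause of the differences was not tested.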

How the results depend on the processing

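The 8 genes were tested in 6 comparisons under 20 alternatives, 12 of which left out 1 library. Of these results for single genes, 914 kept direction and side of the limits, 30 lost a call, 2 gained one and 14 changed sign. HRS1 in KC, HRS1 and WRKY75 for phod2 against KC in P+, WRKY45 in phod2, WRKY45 for phod2 against KC in P-, and HHO2 in both genotypes were called in all 21 settings.

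With limma on log2(FPKM + 1), which shrinks changes of low genes, 2 of 8 were called in phod2 and 2 in KC for P- against P+ (4 each with edgeR), and 1 for phod2 P+ against KC P- (2 with edgeR). The last count was also 1 with quantile scaling, with the length trend removed and with log2(FPKM + 0.1), the gene lost being WRKY75. Over the whole table, log2(FPKM + 1) gave 3370 calls in phod2 and 2718 in KC (5102 and 4292 with edgeR), 432 and 627 for phod2 against KC in P- and P+ (979 and 1545), 354 for the difference of responses (643) and 3201 for phod2 P+ against KC P- (5065). Leaving out 1 library gave 4 to 5 calls among the 8 in phod2, 3 to 4 in KC, 1 to 1 and 2 to 3 for phod2 against KC in P- and P+, 2 to 3 for the difference of responses and 1 to 2 for phod2 P+ against KC P-.

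The sign changes were all of values not called. MYB62 in phod2 (0.01) was -0.31 with quantile scaling, -1.9e-03 without a filter, -0.11 with the length trend removed, -0.02 and -0.04 with log2(FPKM + 1) and log2(FPKM + 0.1), and -0.10 to 0.15 with 1 library left out. ZAT6 ranged from -0.30 to 0.06 in phod2, and from -0.10 to 0.20 for phod2 against KC in P+, with 1 library left out. The difference of responses was 3.3e-05 for WRKY42 with log2(FPKM + 1), and -1.1e-03, -0.01 and -0.02 for HHO2 without a filter and with both FPKM scales. Calls of MYB62 in P+ (0.41 and 0.99) and of WRKY45 in KC (0.68 and 0.98) were lost on log2(FPKM + 1) and log2(FPKM + 0.1), and WRKY45 in KC also with quantile scaling (0.92). On log2(FPKM + 1) WRKY42 also lost its call in phod2 and in KC (-0.61 each), and WRKY6 in phod2 (0.96). WRKY6 in KC was called with the length trend removed (1.01). The cause was not tested.

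No pairing by replicate number was visible, since 0 of 18 same-number correlations exceeded 0.1 (-0.0627 to 0.0619). These correlations cannot show whether libraries of the same number were handled together. With replicate number as a block, 4, 4, 1, 3, 3 and 2 of the 8 genes were called in the 6 comparisons, as without it. Depth limits MYB62, with 7 to 25 counts per library, WRKY42 with 10 to 83 and WRKY75 with 17 to 83.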

Other observations

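Some relatives of ZAT6 and MYB62 were called where these 2 genes were not. Of 10 C2H2 zinc finger genes related to ZAT6, 9 were tested. In P- 3 rose and 1 fell in phod2, and 2 rose in KC. Of all tested genes, 14.1% rose and 10.3% fell in phod2, and 10.9% rose in KC. ZAT8 rose in both genotypes (log2 1.88 ± 0.426 in phod2 and 2.13 ± 0.556 in KC), as did AZF1 (1.63 ± 0.305 and 1.09 ± 0.25). ZAT7, the neighbour of ZAT8 in sequence, fell in phod2 (-1.24 ± 0.326, edgeR adjusted p = 0.00395), and reads of these near copies may have been split. ZAT11 rose in phod2 (2.68 ± 0.445), with a difference between the responses of 2.05 ± 0.62 (edgeR adjusted p = 0.0459). ZAT10, a stress-responsive repressor, was higher in phod2 than in KC in P+, at 6.81 in phod2 and 2.39 TMM-scaled FPKM in KC (log2 1.52 ± 0.143, edgeR adjusted p = 2.04e-06).

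Of 5 MYB genes related to MYB62, 2 were tested, MYB112 and MYB108. MYB108 was called in no comparison, with 0.731 in phod2 P-, 0.736 in phod2 P+, 0.471 in KC P- and 0.475 TMM-scaled FPKM in KC P+. MYB112 rose in P- in both genotypes, to a mean of 2.63 in phod2 P- against 0.357 in phod2 P+ (log2 2.87 ± 0.275, edgeR adjusted p = 4.43e-07), and to 1.9 in KC P- against 0.249 in KC P+ (log2 2.93 ± 0.311, edgeR adjusted p = 1.47e-06).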
